A study of Bos taurus with 12 samples.

Results

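Tight junction genes were examined in the mammary gland of 12 Holstein cows. The genes were the claudins CLDN1, CLDN3, CLDN4, CLDN7 and CLDN8, the membrane proteins OCLN and F11R, and the plaque proteins TJP1 and CGN, which were selected by gene symbol. A probe was found for 8 of these 9 genes, and these 8 genes had 17 of the 43653 probes of the array. No probe matched TJP1, which was not analysed here. All 12 cows were multiparous and in early lactation, and the diet period began at 24 ± 3 days in milk. All had a healthy rear gland infused with 50 µg of lipopolysaccharide (LPS, the endotoxin of Gram-negative bacteria). The control cows (CONT, n = 6) ate a lactation diet freely, and the restricted cows (REST, n = 6) received their ration diluted with barley straw at 48% of dry matter for 4 days. LPS was given on day 3, and the gland was biopsied 24 h later. Each cow gave RNA for 1 one-color Agilent array, and the cows were those kept after a check of RNA quality. As every gland had received LPS, the comparison of REST with CONT is one of diets after LPS, and no unchallenged gland was measured.

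Tight junctions seal the space between neighbouring epithelial cells near the lumen. In the lactating gland they form the blood-milk barrier, which keeps lactose and milk proteins on the milk side and sodium and serum proteins on the blood side, and which becomes leaky in mastitis. Claudins set which ions and small molecules pass between cells. Occludin (OCLN) and junctional adhesion molecule A (F11R) are the other membrane proteins, whereas ZO-1 (TJP1) and cingulin (CGN) lie beneath the membrane and tie it to the actin cytoskeleton.

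Signals are given as log2 intensity minus the 75th percentile of the array, so that 0 is the level of that percentile. Cows are numbered 1 to 6 within each group, and the numbers carry no order and do not pair cows. A log2 FC is the REST mean minus the CONT mean. Each gene is represented by its brightest probe unless another probe is named. For all 8 genes the brightest probe was well above background on each of the 12 arrays, and none of the 17 probes was saturated on any array. Signals of different probes were not compared with each other, because probes differ in brightness for the same amount of RNA.

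The 75th percentile of intensity was 577 to 1184 in CONT and 387 to 1082 in REST, and 57.6 to 78.1% of probes were well above background. The 12 arrays lay on 3 slides of 4. Slide 1 carried 3 CONT cows and 1 REST cow, slide 2 carried 1 CONT cow and 3 REST cows, and slide 3 carried 2 of each. The signal of the negative controls was 37.7 to 58.2 on slide 1 and 17.4 to 19.96 on the other slides. Among markers of luminal epithelium, the cells that bear these junctions, 7 of 8 exceeded background clearly on each of the 12 arrays, as did all 5 milk protein genes with a probe.

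No tight junction gene passed the test between REST and CONT. In the limma fit over all probes, 0 of 43653 probes (0%) had an adjusted p under 0.05 by Westfall-Young or by Benjamini-Hochberg, and 1143 probes (2.62%) had an unadjusted p under 0.05. None of the 17 tight junction probes was among these 1143, and the lowest exact permutation p of the 17 was 0.117, for the second probe of CGN. The groups overlapped for all 8 genes, whereas they did not overlap for 0.127% of all probes with complete values. A total of 5 of the 8 genes had the higher mean in REST, beside 43.5% of the 12639 named genes. This count was 4 with normexp, 3 without REST cow 4 and 6 without REST cow 3. The median log2 FC was 0.12 over the 8 genes and -0.034 over all named genes, but with slide as a block these medians were 0.015 and 0.012 (52.4% of named genes higher in REST), and with normexp background correction the median of the 8 genes was 0.0011. Among the 8 genes the log2 FC ran from -0.42 for CLDN1 to 0.19 for CGN.

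**Figure D1:**
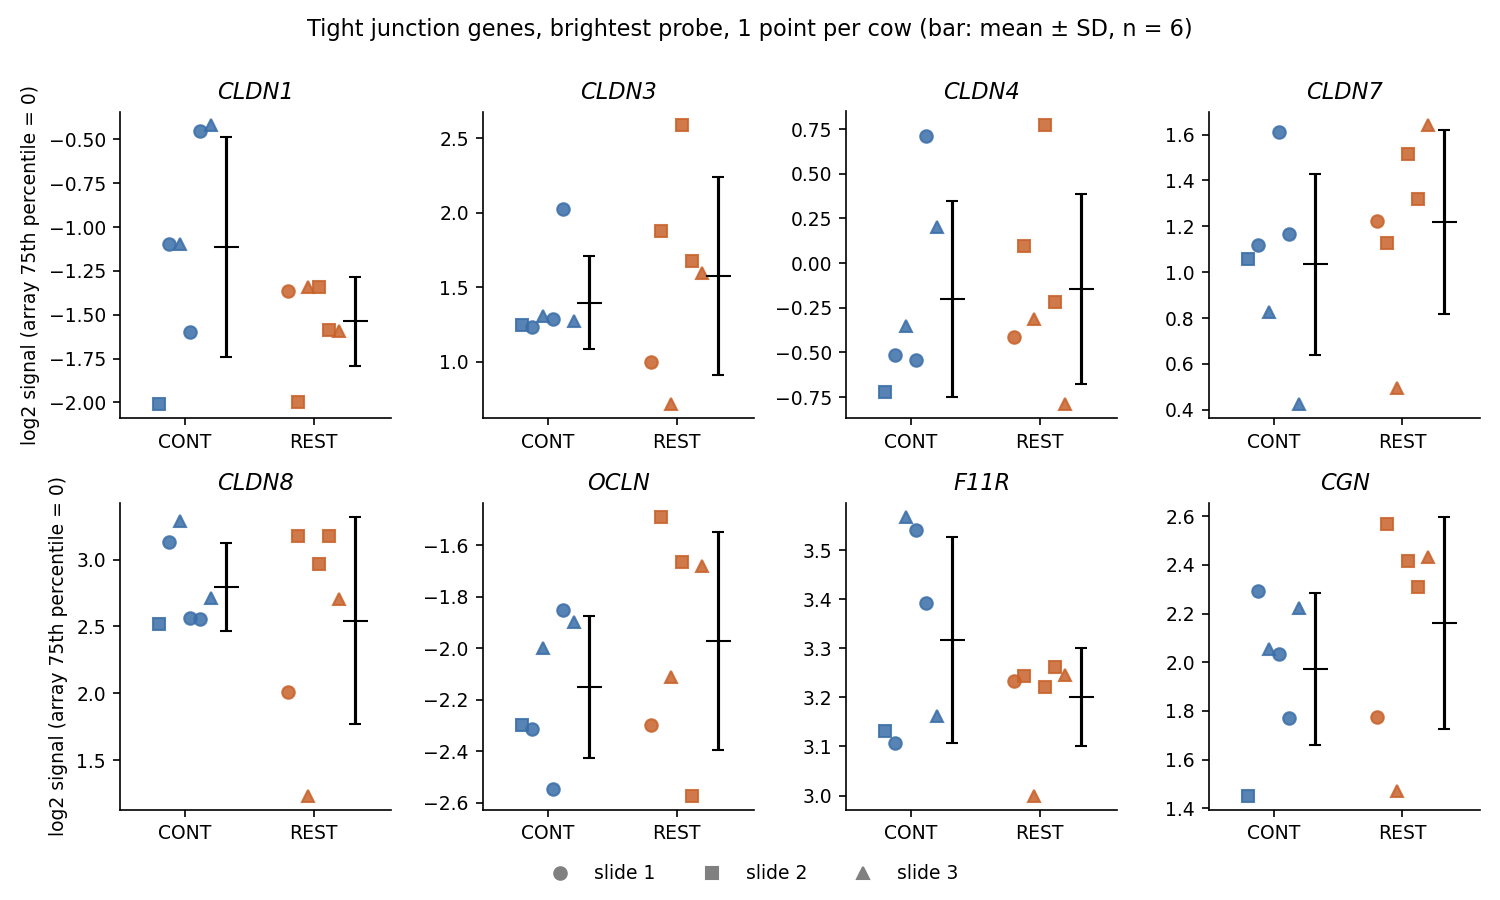
Log2 signal of the brightest probe of each tight junction gene (y axis, 0 is the 75th percentile of the array, scale set for each gene) in 6 CONT and 6 REST cows, with 1 point per cow, its shape giving the slide, and bars for the mean ± SD. CONT and REST overlap for each of the 8 genes, and for CLDN1 and F11R each REST cow lies below the mean of CONT.

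CLDN1, a sealing claudin of most epithelia, had the lowest log2 FC of the 8 genes. The signal of CLDN1 (NM_001001854) was -2.01 to -0.42 with a median of -1.10 in CONT, and -1.999 to -1.34 with a median of -1.48 in REST. The REST cows formed a narrow band, and each of them was under the mean of CONT, but CONT cow 1 was below all of them and CONT cow 4 was below all but 1. Means were -1.11 ± 0.63 (SD, n = 6) in CONT and -1.54 ± 0.26 in REST, a log2 FC of -0.42 (SE 0.27, 95% interval -1.01 to 0.16, exact permutation p = 0.167). The limma p was 1.00 after either adjustment, as it was for all 17 probes. This interval extends from 2.01-fold lower to 1.12-fold higher in REST. The second CLDN1 probe gave a log2 FC of -0.44 (SE 0.28) and followed the first across the 12 cows (Pearson r = 0.967). Leaving out single cows, the log2 FC of CLDN1 ran from -0.60 (without CONT cow 1, the 1 of 12 such fits with an unadjusted limma p under 0.05) to -0.29 (without CONT cow 5 or 6).

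CLDN3 and CLDN4 are bound by the enterotoxin of Clostridium perfringens and are abundant in glandular epithelia. The signal of CLDN3 (NM_205801) was 1.23 to 2.03 with a median of 1.28 in CONT, and 0.72 to 2.59 with a median of 1.64 in REST. In CONT, 5 of 6 cows lay within 1.23 to 1.31 and cow 5 stood above them at 2.03, whereas REST cows were found both below and above the CONT range. The log2 FC of CLDN3 was 0.18 (SE 0.29, 95% interval -0.45 to 0.80, exact permutation p = 0.563). Its second probe gave 0.26 (SE 0.27) and correlated with the first (r = 0.941). REST cow 4 held the highest value, and without it the log2 FC of CLDN3 was -0.024.

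CLDN4 (NM_001014391) showed the smallest difference of the 8 genes. Its signal was -0.72 to 0.71 with a median of -0.43 in CONT, and -0.79 to 0.77 with a median of -0.27 in REST, so that the 2 ranges nearly coincided. The difference was 0.057 (SE 0.30, 95% interval -0.59 to 0.70, exact permutation p = 0.846). The second CLDN4 probe had the opposite sign (-0.12, SE 0.51) and a correlation of 0.827 with the first, so that the direction for CLDN4 depended on the probe. For both probes the highest cow of each group was the same, CONT cow 5 and REST cow 4.

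CLDN7, a claudin of the basolateral membrane as well as of the junction, had a single probe. The signal of CLDN7 (NM_001040519) was 0.42 to 1.61 with a median of 1.09 in CONT, and 0.50 to 1.64 with a median of 1.27 in REST. A total of 5 of 6 REST cows were above the CONT mean, and the ranges again overlapped almost wholly. The log2 FC of CLDN7 was 0.19 (SE 0.23, 95% interval -0.32 to 0.69, exact permutation p = 0.422). It was 0.065 without CONT cow 6 and 0.33 without REST cow 3.

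Among the brightest probes, that of CLDN8, which restricts the passage of cations in tight epithelia, varied most among cows. The second CLDN4 probe varied more, with an SD of 0.98 in CONT and 0.96 in REST. The signal of CLDN8 (NM_001098096, 1 probe) was 2.52 to 3.29 with a median of 2.64 in CONT, and 1.23 to 3.18 with a median of 2.84 in REST. REST cows 1 and 3 were below every CONT cow, at 2.01 and 1.23, whereas the other 4 REST cows lay within the CONT range. The SD was 0.33 in CONT and 0.77 in REST. CLDN8 had a log2 FC of -0.25 (SE 0.33, 95% interval -0.96 to 0.45, exact permutation p = 0.500). This was the widest interval of the 8 brightest probes, from 1.94-fold lower to 1.37-fold higher in REST. Without REST cow 3 the log2 FC of CLDN8 was 0.0093.

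The membrane proteins outside the claudin family gave small differences. OCLN (NM_001082433) had signals of -2.55 to -1.85 with a median of -2.15 in CONT, and of -2.57 to -1.49 with a median of -1.90 in REST. REST cows 2, 4 and 6 were above every CONT cow and REST cow 5 was below every one. OCLN had a log2 FC of 0.18 (SE 0.21, 95% interval -0.28 to 0.64, exact permutation p = 0.392), and 0.084 to 0.30 when single cows were left out (REST cows 2 and 5). With normexp it was 0.018, and with the mean over all 3 probes, the one at background included, 0.35. The second OCLN probe gave 0.22 (SE 0.19) and followed the first loosely (r = 0.451). The third OCLN probe was well above background on 0 CONT arrays and 1 REST array, and no fold is given for it.

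F11R was the most even of the 8 genes. The signal of F11R (NM_174095) was 3.11 to 3.57 with a median of 3.28 in CONT, and 3.00 to 3.26 with a median of 3.24 in REST. In REST, 5 of 6 cows lay within 3.22 to 3.26, and cow 3 was lower at 3.00. No REST cow reached the mean of CONT, although 3 CONT cows (1, 2 and 6) were lower than those 5 REST cows. The log2 FC was -0.12 (SE 0.14, 95% interval -0.41 to 0.18, exact permutation p = 0.245), and -0.066 without CONT cow 3. The interval of F11R was the narrowest of the 8, from 1.33-fold lower to 1.14-fold higher in REST. The other F11R probes gave -0.038 and 0.16, and their correlations with the brightest probe were 0.122 and 0.447, and they varied more among cows (SD 0.54 and 0.64 in CONT, against 0.21 for the brightest probe).

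CGN links the junction to actomyosin and to regulators of small GTPases. The signal of CGN (NM_001192786) was 1.45 to 2.29 with a median of 2.05 in CONT, and 1.47 to 2.57 with a median of 2.36 in REST. A total of 4 REST cows (2, 4, 5 and 6) were above every CONT cow, whereas REST cows 1 and 3 were among the lowest 4 of the 12. CGN had a log2 FC of 0.19 (SE 0.22, 95% interval -0.29 to 0.67, exact permutation p = 0.396). It was 0.087 when CONT cow 1 and 0.33 when REST cow 3 was left out. The other CGN probes gave 0.36 (SE 0.22, exact permutation p = 0.117) and 0.22 (SE 0.22), and the 3 probes correlated with each other at 0.778 to 0.836.

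**Figure D2:**
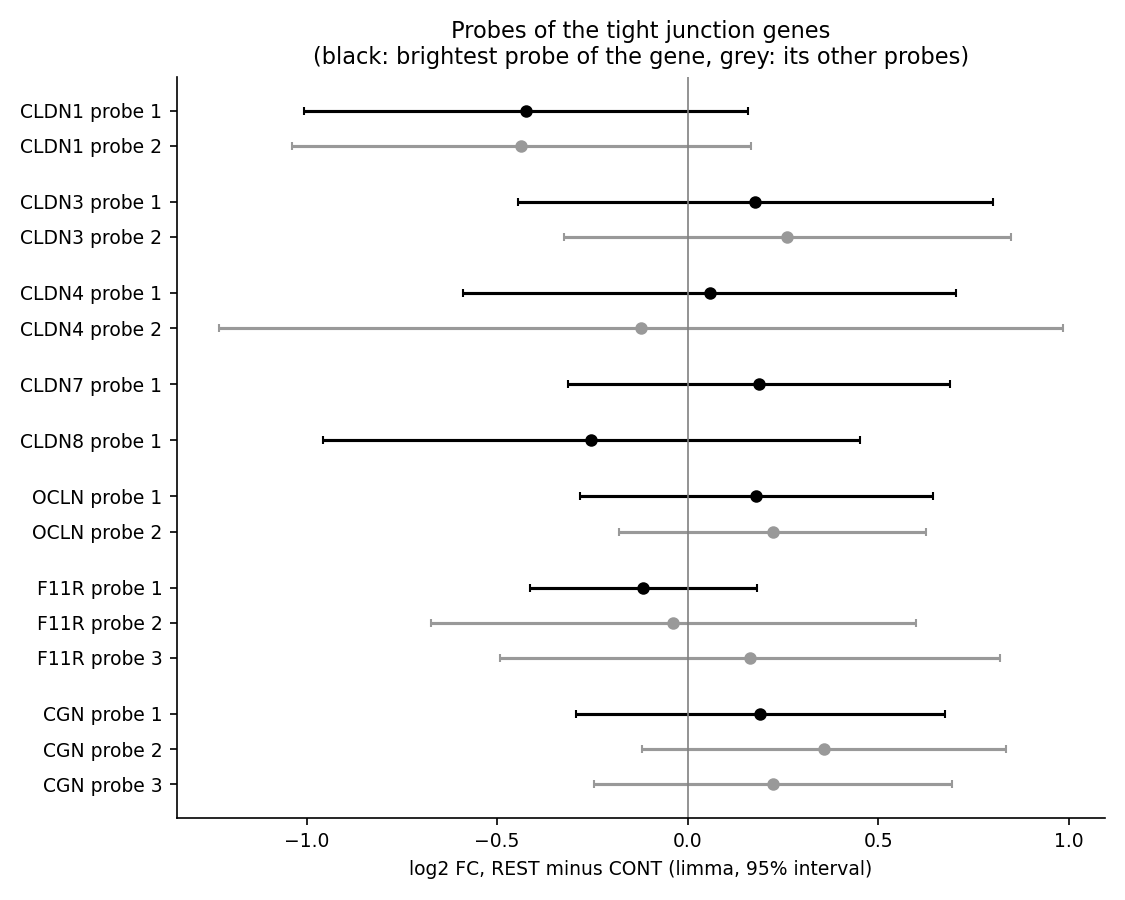
Log2 FC of REST over CONT (x axis) with its 95% interval from limma for 16 probes of the 8 genes, the brightest probe of each gene in black and the others in grey, with the third OCLN probe left out because it was at background. All intervals include 0, and the probes of CLDN4 and of F11R fall on both sides of it.

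The direction of the difference changed with the slide for all 8 genes. On slide 1, where the only REST cow is cow 1, REST was lower for all 8. On slide 2, where the only CONT cow is cow 1, REST was higher for all 8, from 0.11 for F11R to 0.98 for CGN. On slide 3, with 2 cows of each group, REST was lower for CLDN1 (-0.71), CLDN3 (-0.14), CLDN4 (-0.48), CLDN8 (-1.03), F11R (-0.24) and CGN (-0.19), and higher for CLDN7 (0.44) and OCLN (0.052). Slide and single cows cannot be told apart on slides 1 and 2, and differences within single slides were not tested. With slide as a block in the limma fit, none of the 8 genes had an unadjusted p under 0.05. The log2 FC was then -0.27 for CLDN1, 0.029 for CLDN3, 0.0010 for CLDN4, 0.23 for CLDN7 and -0.46 for CLDN8, the largest of the 8 in that fit. It was 0.12 for OCLN, -0.098 for F11R and 0.14 for CGN. Taken alone, diet accounted for 6.63% of the sum of squares in the median tight junction gene. This share was 3.64% in the median named gene and 3.92% in the median of those detected on all arrays. Slide taken alone accounted for 15.5%, beside 22.4% and 20.1%. The shares of diet and slide overlap, because the diets were unevenly spread over the slides.

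For each of the 8 genes, the SD between cows, pooled over the groups, was larger than the difference between REST and CONT. The SD pooled over CONT and REST was 0.478 for CLDN1, 0.517 for CLDN3, 0.541 for CLDN4 and 0.397 for CLDN7. It was 0.595 for CLDN8, above that of 81.2% of the genes detected on all arrays, and 0.164 for F11R, above that of 7.39% of them. It was 0.358 for OCLN and 0.379 for CGN. The highest and lowest of the 12 cows differed 4.15-fold for CLDN8, 3.66-fold for CLDN3, 3.01-fold for CLDN1 and 1.48-fold for F11R.

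The highest and lowest signals of the 8 genes came from 8 of the 12 cows. REST cow 3 was the lowest of the 12 for CLDN3, CLDN8 and F11R, and was among the lowest 2 for 5 of 8 genes. On its array 78.1% of probes were well above background, and the 5 epithelial genes described next had a mean of 3.36, within the range of the other cows. The part of array quality and of epithelial content in these signals was not tested. REST cow 4 was the highest for CLDN3 and CLDN4, CONT cow 3 for CLDN8 and F11R, and REST cow 2 for OCLN and CGN. CONT cow 1, the only control on slide 2, was the lowest for CLDN1 and CGN.

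**Figure D3:**
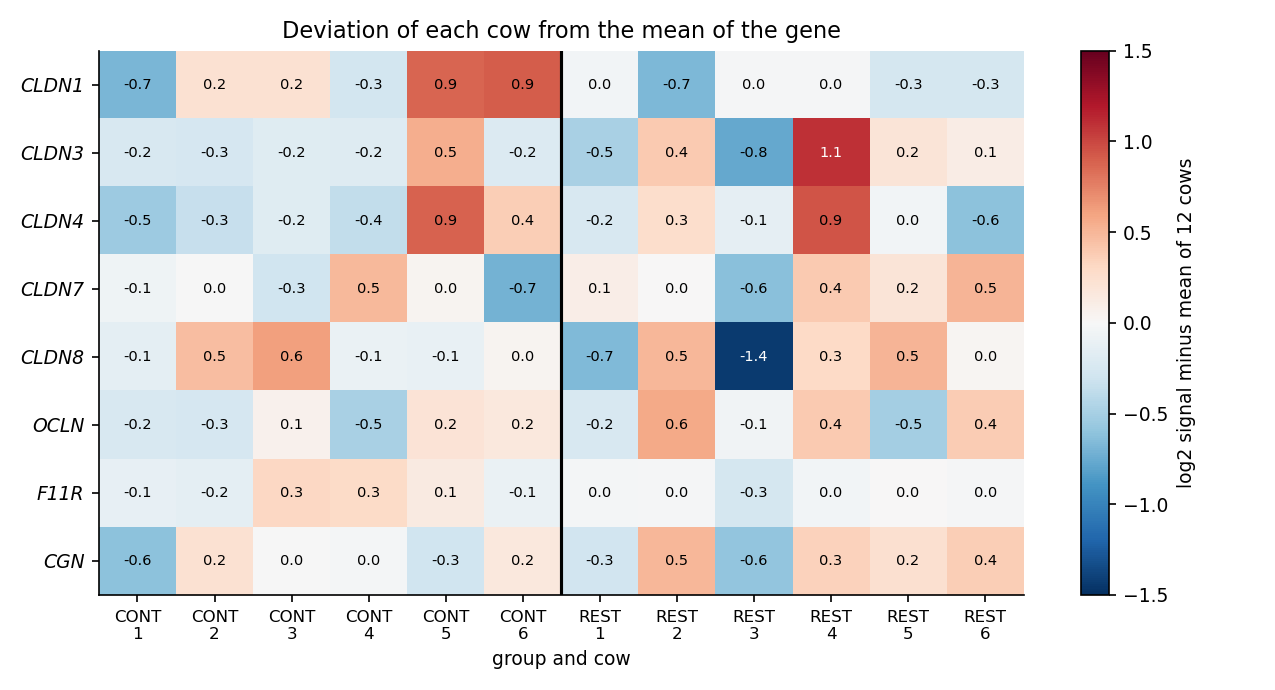
Deviation of each cow (columns) from the mean of the 12 cows for each tight junction gene (rows), in log2 units printed in the cells and colored from blue (below the mean) to red (above). REST cow 3 is low for CLDN3, CLDN7, CLDN8, F11R and CGN, and the F11R row stays within about 0.3 of its mean throughout.

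Biopsies differ in how much epithelium they hold, and in such samples fewer cells of a type and less RNA per cell cannot be told apart. The mean log2 signal of KRT8, KRT18, KRT19, EPCAM and CDH1, keratins and adhesion molecules of epithelial cells, was therefore subtracted from each tight junction gene on the same array. This epithelial index was 2.39 to 3.60 in CONT and 2.35 to 3.50 in REST, with a difference of 0.028 (SE 0.27, exact permutation p = 0.922). Its genes differed in direction, with a log2 FC of -0.49 for KRT18, -0.062 for KRT8, 0.010 for EPCAM, 0.20 for CDH1 and 0.48 for KRT19, so that the mean alone does not show that biopsies held equal amounts of epithelium. Relative to the index, CLDN1 was -4.79 to -3.68 with a median of -4.00 in CONT, and -4.85 to -4.23 with a median of -4.53 in REST. Each REST cow was again under the mean of CONT, and CONT cow 1 was below 5 of them. CLDN1 relative to the index was lower in REST by a log2 difference of -0.45 (SE 0.18, exact permutation p = 0.039, two-sided, n = 6 and 6), the only 1 of the 8 genes under 0.05. Adjusted by Benjamini-Hochberg over all named genes, the p was 1.00, and 125 of 12551 named genes (0.996%) were under 0.05 when treated alike, 82 of them (0.653%) lower in REST. With slide as a block the difference in CLDN1 was -0.37 (permutation p = 0.156), and it was no longer under 0.05 in 8 of the 12 settings that left out 1 cow. For the other 7 genes the exact permutation p was 0.610 to 0.922.

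No pair of genes passed the threshold for a correlation across cows. Pearson correlations were computed for 28 pairs of genes and for each of the 8 genes with the epithelial index, 36 relations in all, and 0 had a permutation p under 0.05 after Benjamini-Hochberg adjustment. A total of 22 of 28 pairs were positive. The highest correlation was that of CLDN8 with CGN (r = 0.74, permutation p = 0.00454, adjusted p = 0.153, Spearman rho 0.71, permutation p = 0.0131). It was 0.59 without the 2 cows farthest from the median of CLDN8, 0.59 within CONT and 0.95 within REST, and 0.73 after the mean of each slide was subtracted.

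CLDN3 and CLDN4 followed (r = 0.70, permutation p = 0.00987, adjusted p = 0.153, Spearman rho 0.52, permutation p = 0.0844), but without the 2 cows farthest from the median of CLDN3 r was 0.20. The relation over all cows thus rested largely on CONT cow 5 and REST cow 4. It was 0.83 within CONT, 0.72 within REST and 0.71 after the mean of each slide was subtracted, and at least 0.52 when any 1 cow was left out. CLDN1 correlated with the epithelial index (r = 0.69, permutation p = 0.0127, adjusted p = 0.153, Spearman rho 0.65, permutation p = 0.0252), with r = 0.40 without the 2 cows farthest from the median of CLDN1. Within the groups it was 0.80 in CONT and 0.88 in REST. The other 7 genes gave correlations of -0.41 (F11R) to 0.55 (CLDN4) with the index. Slides of 4 cows were too small for correlations within a slide.

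**Figure D4:**
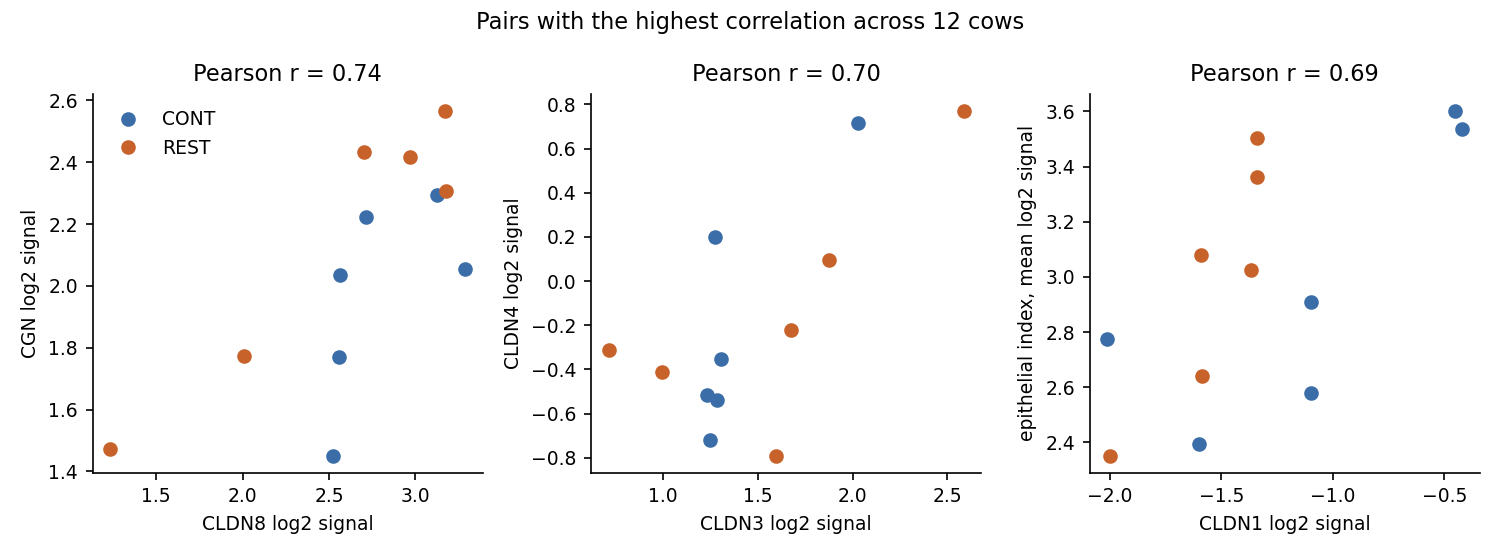
Log2 signals of the 3 pairs with the highest Pearson correlation across the 12 cows (blue CONT, orange REST), CLDN8 with CGN, CLDN3 with CLDN4, and CLDN1 with the mean of 5 epithelial genes. In the middle panel the 2 cows with the highest signals, CONT cow 5 and REST cow 4, stand apart from the rest, and in the left panel REST cow 3 lies at the lower end of both genes.

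Among 8993 other named genes that were detected on all arrays, the 5 closest to the mean profile of the 8 tight junction genes over the 12 cows were RPAIN (r = 0.863), TBCC (0.861), RPS3 (0.828), CALCOCO1 (0.823) and LAT (0.820). None of these is a junction gene of the lists used here. Taken singly, CLDN1 was closest to MRPS17 (0.901), CLDN3 to GPRC5C (0.798), CLDN4 to PXDC1 (0.900) and CLDN7 to ATL3 (0.925). CLDN8 was closest to RPL14 (0.915), OCLN to PER1 (0.878), F11R to METTL3 (0.856) and CGN to DHRS3 (0.891). With 12 cows and 8993 genes ranked, values of this size are a description only.

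The wider set of junction genes was examined by the same fit, and 0 of these genes passed the adjusted threshold. By limma, 1 gene in all 7 lists together had an unadjusted p under 0.05, beside 334 of 12639 named genes (2.64%). Of 18 other claudins, 12 had a probe and 6 were detected (well above background) on each array, and 3 of these 6 had the higher mean in REST. CLDN5, the claudin of endothelium, had the largest difference of these 6. Its signal was 1.34 to 3.35 with a median of 3.11 in 6 CONT cows, and 2.43 to 3.54 with a median of 3.24 in the 5 REST cows with a value, since 1 REST array had an outlier spot. The log2 FC of CLDN5 was 0.32 (SE 0.36, exact permutation p = 0.504) from those 11 cows, and 0.72 with slide as a block.

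Of 11 other membrane proteins of tight junctions, 9 had a probe, and 6 of the 7 detected on all arrays were higher in REST on average. ESAM, an adhesion molecule of endothelial junctions, had the largest of these differences. It was -2.38 to 0.91 with a median of 0.52 in CONT, and 0.27 to 1.15 with a median of 0.61 in REST. CONT cow 6 thus lay far below the others. The log2 FC of ESAM was 0.55 (SE 0.48, exact permutation p = 0.385), and without CONT cow 6 it was 0.049 for ESAM and 0.020 for CLDN5. ESAM and CLDN5 also belong to a list of 9 endothelial markers, all 9 of which averaged higher in REST (median log2 FC 0.37), and 1 of which (VWF, 0.79) was under an unadjusted p of 0.05. The adjusted limma p of VWF was 1.00. Of all named genes, 43.5% averaged higher in REST and 2.64% were under 0.05. For TEK, a marker of this list, the medians were nearly equal (-0.355 in CONT, -0.359 in REST), whereas those of the other markers were higher in REST. CDH5 ran from -4.39 to -1.49 in CONT and from -2.54 to -1.34 in REST. Values without CONT cow 6 are given here only for ESAM and CLDN5. Signals of the markers with a value were summed for each cow, in multiples of the array's 75th percentile. The sums were 6.01 to 23.5 in CONT and 14.7 to 28.8 in REST. The sum for REST cow 1 lacks CLDN5, which had no value there, and so counts fewer markers than the others. No marker of the list was at background. The part of endothelium in the values of CLDN5 and ESAM was not tested.

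Of 23 other plaque proteins, 16 had a probe, and 6 of the 14 detected on all arrays were higher in REST. TJAP1, a protein found at tight junctions and the Golgi, was the 1 gene with an unadjusted p under 0.05. It was 1.21 to 1.501 with a median of 1.37 in CONT, and 1.34 to 2.37 with a median of 1.71 in REST. A total of 4 of 6 REST cows were above every CONT cow. The log2 FC of TJAP1 was 0.41 (SE 0.19, exact permutation p = 0.0346), and its adjusted limma p was 1.00. With slide as a block the log2 FC of TJAP1 was 0.28, no longer under an unadjusted p of 0.05, and the same held in 10 of the 12 fits that left out 1 cow (0.29 without REST cow 2).

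Adherens junctions and desmosomes, which hold epithelial cells together below the tight junction, were examined in the same way, and no set of genes was tested. In adherens junctions 2 of 6 detected genes had the higher mean in REST (median log2 FC -0.081), beside 43.7% of all named genes detected on all arrays, and VCL, the actin linker vinculin, had the largest difference (-0.32, SE 0.16, exact permutation p = 0.0325, adjusted limma p = 1.00, its unadjusted limma p not being under 0.05). The signal of VCL was 3.24 to 3.72 in CONT and 2.74 to 3.48 in REST, and 5 of 6 REST cows were below the CONT mean. With slide as a block the log2 FC of VCL was -0.23, also not under an unadjusted p of 0.05, whereas VCL was under 0.05 with an intensity trend, with the filter on dim probes and without REST cow 3. VCL is also expressed outside the epithelium. Among 8 fibroblast markers, all detected, 3 had the higher mean in REST, the median log2 FC was -0.49, and LUM (-0.84), COL1A1 (-0.72) and COL1A2 (-0.65) were under an unadjusted p of 0.05, beside 2.64% of named genes, with an adjusted limma p of 1.00 for each. Their summed signal, in multiples of the 75th percentile, was 51.1 to 67.5 in CONT and 24.2 to 71.3 in REST. Of 8 myoepithelial markers 7 were detected on all arrays, 2 of these 7 were higher on average in REST, and their list summed to 88.0 to 243 in CONT and 82.2 to 141 in REST. The part of these cells in the value of VCL was not tested. Among desmosome genes 1 of 6 detected genes had the higher mean in REST (median -0.12), beside that same share. PKP1, a plakophilin of the desmosomal plaque, had a log2 FC of -0.30 (SE 0.44, exact permutation p = 0.552), which was -0.11 with slide as a block and 0.0016 without CONT cow 5.

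Of 11 genes of junction contraction, 8 had a probe and all 8 were detected on all arrays, and 3 of these averaged higher in REST, and the largest difference was that of ROCK2, the kinase that drives actomyosin contraction (0.31, SE 0.18, exact permutation p = 0.0823). Of 17 regulators of junction genes, 14 were detected on all arrays and 7 of these had the higher mean in REST, and KLF4, a transcription factor of differentiated epithelium, had the largest difference (0.48, SE 0.30, exact permutation p = 0.156, 0.30 without CONT cow 4 and 0.65 without CONT cow 5). For ROCK2, 5 of 6 REST cows were above the CONT mean, as were 5 of 6 for KLF4, and the groups overlapped for both.

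**Figure D5:**
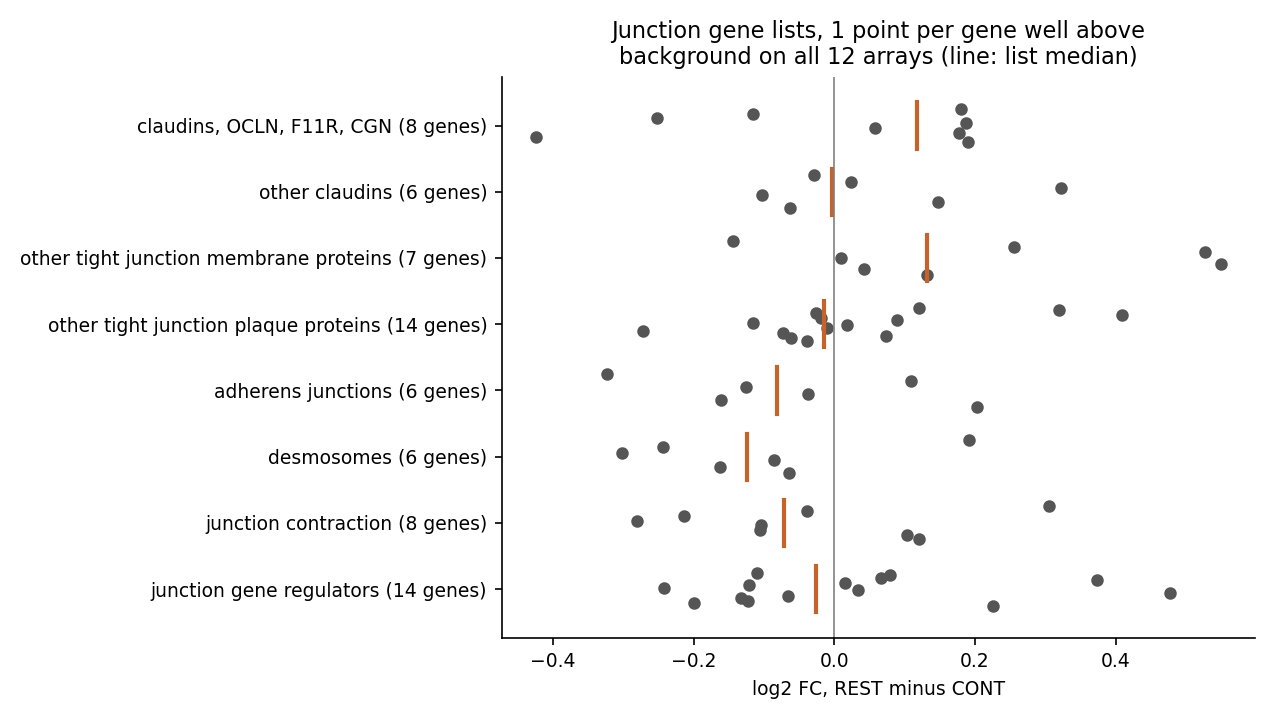
Log2 FC of REST over CONT (x axis) for the genes of each junction list (rows) that were well above background on all 12 arrays, with 1 point per gene and a vertical line at the median of the list. List medians lie between -0.12 (desmosomes) and 0.13 (other membrane proteins), and each list has genes on both sides of 0.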

How the data were processed

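Total RNA (1 biopsy per cow, not pooled) was labeled with Cy3, and the authors processed the scans with Agilent Feature Extraction 11.0.1.1. The deposited intensity of each spot is background-corrected and not normalized between arrays, and the deposited value table holds the same intensities (largest difference 0). Spots marked as outliers were set to missing (205 of 43653 probes were affected), the array's 75th percentile was subtracted on the log2 scale, and probes were named by matching their RefSeq accession to the RefSeq table (12639 genes). Array annotation and table belong to different assemblies, so positions are left out. The diets were compared by limma 3.58.1 (R 4.3.3), two-sided, with adjustment over all probes by Westfall-Young (100 of 462 distinct splits, lowest possible p 0.01) and Benjamini-Hochberg. Exact permutation tests of single genes enumerated all splits (lowest possible p 0.00216). Correlations used 100000 permutations. The procedure was tested on simulated data. Normexp (offset 50) used median spot and background signals.

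The brightest probe over the 12 arrays stood for a gene. Named junction genes were those with an unadjusted p under 0.05 and, per list, the one with the largest absolute log2 FC among those detected (well above background) on all 12 arrays. For likeness, the highest r was named. The genes, lists and tests were chosen with earlier results of these data known. Alternatives were quantile normalization, normexp, another percentile base, the value table, outlier spots kept, a filter on dim probes, slide as a block, an intensity trend, the mean over all probes, differences within slides, all luminal markers as the index, diet or slide means subtracted, and leaving out each cow. Figures were drawn with matplotlib 3.10.9.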

Additional observations from a re-analysis of the deposited data

Results flagged for a closer look

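A cow stood apart from the other 5 of its group in 2 of the 16 sets of 6 values tested (8 genes in 2 groups), by a gap to its neighbour above Dixon's 95% critical share of the range of the group. Chance gives this in about 1 in 20 sets. CLDN3 in CONT cow 5 was 2.03, whereas the other CONT cows were 1.23 to 1.31 (gap 0.905 of the range). F11R in REST cow 3 was 3.00, whereas the other REST cows were 3.22 to 3.26 (gap 0.845 of the range).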

How the results depend on the processing

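No probe, no tight junction gene and no other junction gene passed the adjusted threshold in any of the 21 alternatives (with slide as a block, by Benjamini-Hochberg alone), and no correlation did in 15. Log2 FC below are REST minus CONT. The sign of the uncalled differences changed as follows. Within slides, it turned for CLDN1 (0.37, slide 2), CLDN3 (-0.52 and -0.14, slides 1 and 3), CLDN4 (-0.30 and -0.48, slides 1 and 3), CLDN7 (-0.074, slide 1), CLDN8 (0.58, slide 2), OCLN (-0.063, slide 1), F11R (0.11, slide 2) and CGN (-0.26 and -0.19, slides 1 and 3). With normexp, CLDN4 was -0.015. With the mean over all probes, CLDN4 was -0.033 and F11R 0.0029. Leaving out single cows, the values ran from -0.024 (REST cow 4 out) to 0.35 for CLDN3, -0.13 (REST cow 4 out) to 0.24 for CLDN4, -0.38 to 0.0093 (REST cow 3 out) for CLDN8, and -0.49 to 0.0016 (CONT cow 5 out) for PKP1, and from -0.072 (REST cow 4 out) to 0.18 for the median over the 8 genes. Probes with an unadjusted p under 0.05 numbered 377 with normexp, 1518 with quantile normalization and 825 to 1739 without single cows (REST cow 2 and REST cow 6), against 1143.

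Relative to the epithelial index, the number of genes under 0.05 was 1, and 0 with slide as a block. It was 0 to 1 without single cows, and 0 without CONT cow 2, 3, 4, 5 or 6 or REST cow 3, 4 or 6, where CLDN1 stayed at -0.45 to -0.37. The sign of the difference relative to the index turned with slide as a block for CLDN3 (-0.070) and CLDN4 (-0.099). Leaving out single cows, the difference relative to the index ran from -0.039 to 0.40 for CLDN3, -0.15 to 0.18 for CLDN4, -0.078 to 0.39 for CLDN7, -0.53 to 0.055 for CLDN8, -0.072 to 0.26 for OCLN, -0.29 to 0.015 for F11R and -0.047 to 0.37 for CGN. The cause was not tested. No paired analysis was possible because the labels give the cows no shared numbers. The 6 cows per group limit precision, and the 95% intervals given above show the differences that these data do not exclude.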
